A study of Mus musculus with 2 samples.

Results

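Fth1, Hmox1, Slc11a1, Tfrc and Hif1a are the 5 iron handling and hypoxia genes followed here across the cells of 4T1 tumours. They were chosen by name, as 5 of the 396 genes counted in all 4 tag populations of a targeted mouse immune panel (468 genes were counted in tags 2 to 4). All 5 were counted in every tag, and none of them was used to gate the cells.

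Iron enters most cells as transferrin bound to the transferrin receptor, encoded by Tfrc, and what is not used at once is held in ferritin, whose heavy chain Fth1 encodes. Heme, taken up with dead red cells or released inside the cell, is opened by heme oxygenase 1, encoded by Hmox1, which frees its iron. Slc11a1 encodes NRAMP1, a divalent metal transporter of phagosome membranes in macrophages and neutrophils, and BALB/c mice are known to carry the allele that impairs it. Hif1a encodes the oxygen-regulated subunit of HIF-1, a transcription factor that is controlled mainly through breakdown of its protein, so its mRNA is not a measure of hypoxia. When cytosolic iron is low, iron regulatory proteins bind hairpins called iron-responsive elements, which blocks translation of ferritin mRNA and protects Tfrc mRNA from decay.

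The cells came from primary tumours of the mouse mammary carcinoma line 4T1, grown in the left mammary fat pad of female BALB/c mice aged 8 weeks. The anti-PD-1 pool is 1 cartridge with cells of mice given anti-PD-1 antibody (clone RMP1-14) or anti-Siglec-E antibody plus anti-PD-1, read as tags 3 and 4. The no-anti-PD-1 pool is the other cartridge, with cells of mice given isotype control (rat IgG2a) or anti-Siglec-E antibody, read as tags 1 and 2. Which arm a tag stands for within its pool is not given in the labels, and values are therefore given by tag. Treatment began on day 7, at tumours of about 70 mm3, with 6 mice in each of the 4 arms, of which tumours of 2 were taken. Red cells were lysed and dead cells removed, and EPCAM-positive and EPCAM-negative fractions were put together at 1 to 4, so the share of tumour cells was set by hand. With 1 cartridge per pool there is no replicate, no test was possible, and pool and cartridge cannot be told apart; the tags of a pool are not replicates.

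The anti-PD-1 pool held 8073 cells, 6620 of them in tag 3, and the no-anti-PD-1 pool held 3945, 2430 of them in tag 1, in all 12018 cells. The shared genes gave 12416134 and 3074544 molecules in tags 3 and 4, against 5318288 and 2993684 in tags 1 and 2, with medians of 1262 to 1463 molecules per cell. Marker gates put 10336 cells (86.0%) in 6 main classes: 8564 neutrophil-like, 720 tumour cell-like, 520 monocyte/macrophage-like, 231 CD8 T cell-like, 205 CD4 T cell-like and 96 NK cell-like cells. Levels are given as CPM, the counts of a gene per 1000000 molecules of the shared genes. C1qb and Cd3e were among the gate markers, so their levels follow from the gating and do not check the class names. C1qb stood at 3726 to 7612 CPM in monocyte/macrophage-like cells, and at 2.5 to 34.0 CPM in neutrophil-like and tumour cell-like cells. Cd3e stood at 2261 to 6668 CPM in CD8 and CD4 T cell-like cells, and at 0 to 13.1 CPM in neutrophil-like, monocyte/macrophage-like and tumour cell-like cells. Epcam, which no gate used and which was counted in tags 2 to 4, stood at 10343 to 12594 CPM in tumour cell-like cells, and at up to 1371 CPM in monocyte/macrophage-like cells. Left out were 861 cells that passed no gate and 529 mixed cells. Mixed cells passed several gates, or passed 1 gate but held 5% or more S100a8 plus S100a9, or as lymphocytes 0.5% or more Cd14 plus Lyz2. The levels of S100a8 and S100a9 in classes other than neutrophil-like are thus capped by the gating. Also left out were 139 T cells with neither or both coreceptors and 3 mast or basophil-like cells. No barcode was shared within a cartridge, and 2 to 16 were shared between tags of different cartridges. Leaving out cells with a shared barcode kept the number of calls between classes (14) and between pools (7). A difference between classes or subsets is called higher or lower where it is at least 2-fold in the same direction in all 4 tags. Between pools it is called where the tags of 1 pool are both above those of the other pool, with at least a 1.5-fold step between the closest tags. The share of all genes that pass the same rule is given beside the members.

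Iron-responsive elements tie 2 of the 5 genes to the same regulators, and their sequences are shown because Fth1 and Tfrc carry them at opposite ends of the mRNA. Transcripts targeted by the panel were searched in the sense strand for a C, then 5 bases of any kind, then the loop CAGTGN, where those 5 bases pair with the 5 after the loop (A-T, G-C or G-T). Fth1 (chr19:9980598-9985098, plus strand, 4 exons in the target transcript) had 1 match in its 5′ UTR of 224 bases, and Tfrc (chr16:32608920-32632794, plus strand, 19 exons) had 4 matches in its 3′ UTR of 2458 bases. Hmox1 (chr8:75093621-75100589, 5 exons), Slc11a1 (chr1:74375195-74386062, 15 exons) and Hif1a (chr12:73901375-73947530, 15 exons), all on the plus strand, had none in either UTR. Positions are of GRCm38 in the GENCODE M21 annotation, and each run below is 30 bases, 5′ to 3′, with the 6-base loop in capitals.
Fth1 5′ UTR, chr19:9982732-9982761: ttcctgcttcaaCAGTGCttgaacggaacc
Tfrc 3′ UTR, chr16:32631219-32631248: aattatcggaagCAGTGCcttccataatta
Tfrc 3′ UTR, chr16:32631598-32631627: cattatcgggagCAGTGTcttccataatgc
Tfrc 3′ UTR, chr16:32631663-32631692: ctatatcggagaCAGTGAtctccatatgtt
Tfrc 3′ UTR, chr16:32631710-32631739: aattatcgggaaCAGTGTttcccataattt
Of annotated transcripts that have such a UTR, 0.119% (60 of 50507) held such a match in the 5′ UTR and 0.451% (202 of 44785) in the 3′ UTR. The match describes letters, and binding was not measured.

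**Figure D1:**
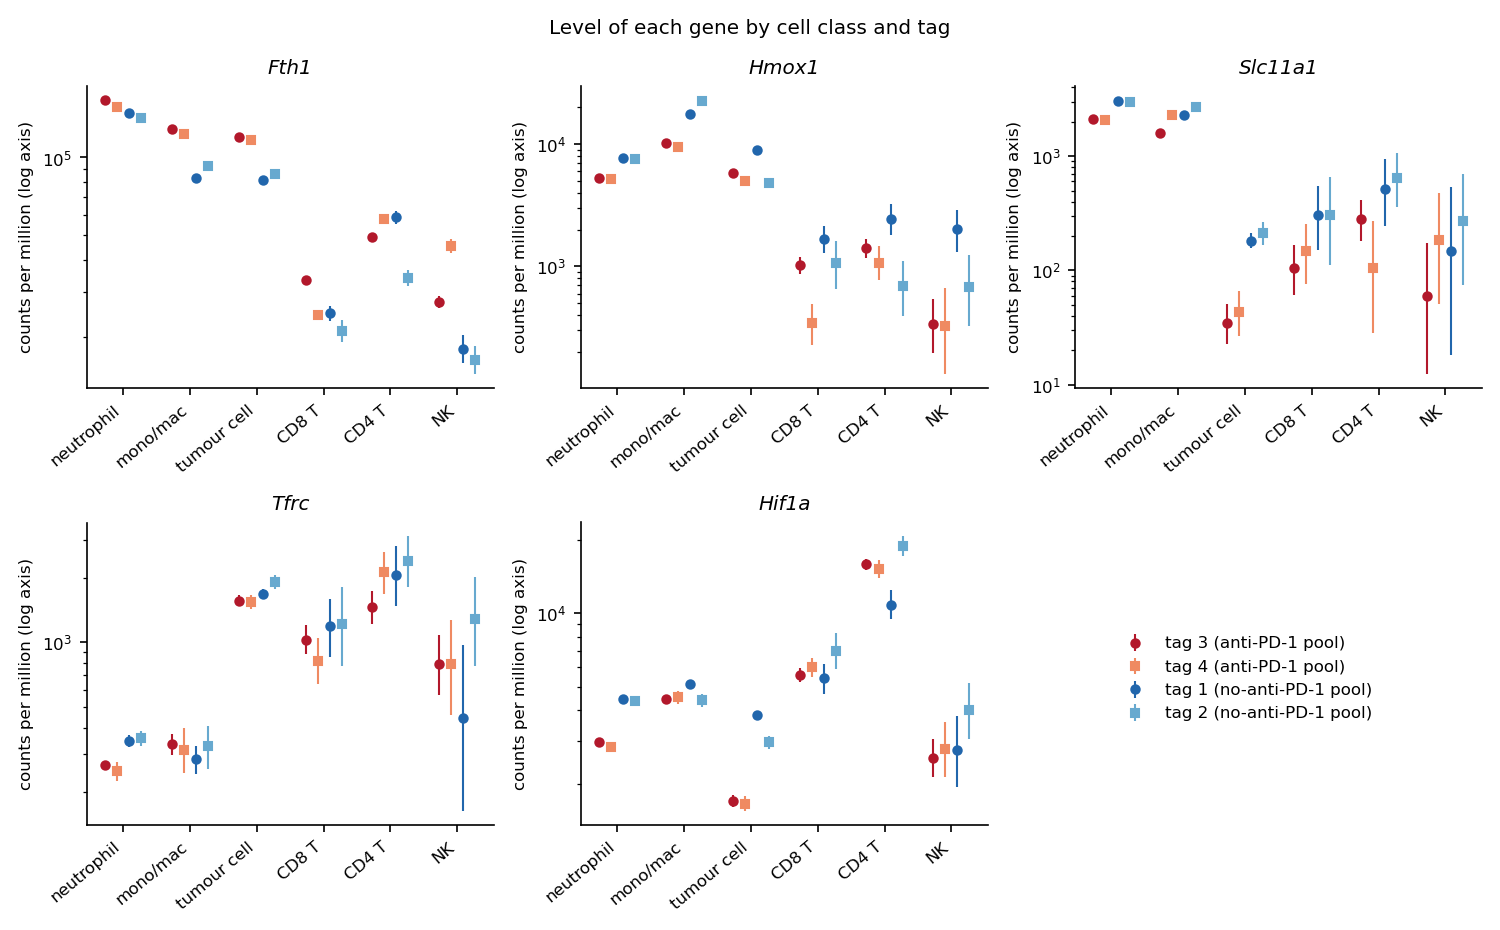
Level of each gene in CPM of shared-gene molecules (log axis) by cell class, with 1 point per tag and bars for the exact Poisson 95% interval, which covers counting error only. Fth1 ran from 142899 to 167386 CPM in neutrophil-like cells, Hmox1 peaked in monocyte/macrophage-like cells, and Slc11a1 stood at 34.8 to 212 CPM in tumour cell-like cells, against at least 2056 CPM in neutrophil-like cells.

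Storage was read from Fth1, which took 14.0% of all shared-gene molecules. It stood at 167386 and 157712 CPM in neutrophil-like cells of tags 3 and 4 (anti-PD-1 pool), and at 149064 and 142899 CPM in tags 1 and 2 (no-anti-PD-1 pool). Monocyte/macrophage-like cells had 129352 and 122897 CPM in tags 3 and 4, against 83427 and 92417 CPM in tags 1 and 2. Tumour cell-like cells had 120460 and 116702 CPM in the anti-PD-1 pool and 81730 and 86626 CPM in the other pool. The ranges of the last 2 classes overlapped, both lay under every neutrophil-like value, and both lay above every lymphocyte value. CD4 T cell-like cells had 48875 and 57723 CPM in tags 3 and 4, and 58684 and 34094 CPM in tags 1 and 2, with 61.6% of the tag 1 molecules in 1 cell. CD8 T cell-like cells had 21217 to 33312 CPM and NK cell-like cells 16337 to 45309 CPM, ranges that overlap. Of the classes with few cells, dendritic cell-like cells had 52036 to 61239 CPM, stromal-like cells 33733 to 58292 CPM and B cell-like cells 18220 to 38874 CPM, all of them overlapping with CD4 T cell-like cells.

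The order of storage turned with the scale. Neutrophil-like cells had a median of 1250.5 molecules, against 2770.5 in monocyte/macrophage-like cells. In mean molecules per cell Fth1 was 521 and 438 in monocyte/macrophage-like cells of tags 3 and 4 and 372 and 311 in tags 1 and 2. The same measure in neutrophil-like cells was 295 and 299.2 in tags 3 and 4, and 248.97 and 238 in tags 1 and 2. Every monocyte/macrophage-like mean lay above every neutrophil-like mean. Every cell of the 6 classes had at least 1 Fth1 molecule.

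Heme breakdown was read from Hmox1. Its level was 10158 and 9559 CPM in monocyte/macrophage-like cells of tags 3 and 4, against 17796 and 22504 CPM in tags 1 and 2. Neutrophil-like cells had 5310 and 5175 CPM in the anti-PD-1 pool, against 7782 and 7626 CPM in the no-anti-PD-1 pool, and tumour cell-like cells had 5842 and 5037 CPM, against 9027 and 4839 CPM. Of the 6 classes, monocyte/macrophage-like cells were highest in every tag, and the ranges of the other 2 classes overlapped. The ratio of monocyte/macrophage-like to neutrophil-like cells was 1.91 and 1.85 in tags 3 and 4 and 2.29 and 2.95 in tags 1 and 2, short of 2-fold in tags 3 and 4, so it was not called. Few cells carried most of the transcript: the top 10% of monocyte/macrophage-like cells held 57.2 and 54.0% of Hmox1 molecules in tags 3 and 4, and 65.9 and 69.3% in tags 1 and 2. Tumour cell-like cells were uneven as well, with 72.4 and 66.9% in the top 10% of cells in tags 3 and 4, and 71.4 and 62.1% in tags 1 and 2. In the same monocyte/macrophage-like cells the top 10% for Hif1a held 23.6 to 31.8%.

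Hmox1 was low in lymphocytes, and single cells set much of what was seen there. CD8 T cell-like cells had 1023 and 343 CPM in tags 3 and 4, and 1682 and 1061 CPM in tags 1 and 2. CD4 T cell-like cells had 1407 and 1074 CPM in tags 3 and 4, and 2467 and 686 CPM in tags 1 and 2, where 1 cell held 89.6% of the tag 1 molecules. Dendritic cell-like cells had 547 to 2788 CPM, and stromal-like cells, at 3219 to 13207 CPM, overlapped with neutrophil-like cells. In cells thinned to 400 molecules, 73.0 to 81.3% of monocyte/macrophage-like cells had an Hmox1 molecule, against 62.7 to 68.8% of neutrophil-like cells and 6.11 to 35.7% of CD8 T, CD4 T and NK cell-like cells (unthinned 91.3 to 98.6%, 83.4 to 86.0% and 23.1 to 64.3%). The lymphocyte classes, whose median depth was 632 to 1019 molecules against 2770.5 in monocyte/macrophage-like cells, serve as background here, and their shares are not read as expression. Of 5 erythroid markers listed, Alas2 alone was counted, and it gave 6 molecules in all over the 6 classes, each of them in tag 3.

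Metal transport from phagosomes was read from Slc11a1. Neutrophil-like cells had 2104 and 2056 CPM in tags 3 and 4, against 3051 and 2967 CPM in tags 1 and 2. Monocyte/macrophage-like cells had 1579 and 2305 CPM in tags 3 and 4, against 2297 and 2710 CPM in tags 1 and 2, overlapping with neutrophil-like cells. The other main classes were far lower: tumour cell-like cells had 34.8 and 43.4 CPM in tags 3 and 4, and 182 and 212 CPM in tags 1 and 2. Over neutrophil-like cells this was a ratio of 0.02 in each tag of the anti-PD-1 pool, and 0.06 and 0.07 in tags 1 and 2. In cells thinned to 400 molecules, Slc11a1 was found in 49.5 to 57.7% of neutrophil-like and 42.9 to 54.6% of monocyte/macrophage-like cells, against 1.29 to 8.62% of tumour cell-like cells (unthinned 76.2 to 80.7%, 82.3 to 90.6% and 7.69 to 51.7%). CD8 T, CD4 T, NK, dendritic, B and stromal-like classes had 6 to 54 molecules each and 0 to 973 CPM. Slc11a1 was thus high in both phagocyte classes, and in no tag did another class reach the lowest of their values.

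Uptake was read from Tfrc, which proliferating cells are known to raise. Tumour cell-like cells had 1565 and 1538 CPM in tags 3 and 4, and 1682 and 1911 CPM in tags 1 and 2. CD4 T cell-like cells had 1463 and 2122 CPM in tags 3 and 4, and 2056 and 2402 CPM in tags 1 and 2. In CD4 T cell-like cells 1 cell held 65.0 and 53.6% of the molecules of tags 1 and 2. Those 2 classes overlapped and could not be ordered, and both lay above monocyte/macrophage-like cells, at 335 and 316 CPM in tags 3 and 4 and 284 and 327 CPM in tags 1 and 2. Neutrophil-like cells had 267 and 251 CPM in the anti-PD-1 pool, and 346 and 356 CPM in the no-anti-PD-1 pool, a range that overlapped with monocyte/macrophage-like cells. CD8 T cell-like cells were in between, at 1029 and 822 CPM in tags 3 and 4 and 1186 and 1212 CPM in tags 1 and 2, and overlapped with NK cell-like cells, at 446 to 1288 CPM, and dendritic cell-like cells, at 319 to 1368 CPM. Stromal-like cells had 424 to 777 CPM. B cell-like cells had 2706 and 5909 CPM in tags 3 and 4, from 37 and 38 molecules, and 1041 and 2433 CPM in tags 1 and 2, from 2 and 5 molecules, which cannot place them.

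Hif1a was highest in CD4 T cell-like cells. They had 15879 and 15171 CPM in tags 3 and 4, and 10843 and 18827 CPM in tags 1 and 2. CD8 T cell-like cells had 5579 and 5998 CPM in tags 3 and 4, and 5404 and 7022 CPM in tags 1 and 2, so the ratio of CD4 to CD8 was 2.85 and 2.53 in tags 3 and 4 and 2.01 and 2.68 in tags 1 and 2. Monocyte/macrophage-like cells had 4408 to 5103 CPM, a range wholly under that of CD8 T cell-like cells, and neutrophil-like cells had 2974 and 2828 CPM in tags 3 and 4, against 4438 and 4376 CPM in tags 1 and 2. Tumour cell-like cells were lowest in the anti-PD-1 pool, at 1694 and 1660 CPM, and had 3837 and 2962 CPM in the no-anti-PD-1 pool. NK cell-like cells had 2559 to 3999 CPM, dendritic cell-like cells 2098 to 3401 CPM and stromal-like cells 2985 to 4349 CPM, all overlapping with neutrophil-like cells. In mean molecules per cell the order was another: monocyte/macrophage-like cells had 17.8 and 16.2 in tags 3 and 4 and 22.8 and 14.8 in tags 1 and 2. CD4 T cell-like cells had 12.2 and 12.3 molecules per cell in tags 3 and 4 and 12.4 and 17.6 in tags 1 and 2, and were the higher of the pair in tag 2 alone.

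Set against neutrophil-like cells, 14 of the 25 pairs of gene and class were at least 2-fold apart in the same direction in all 4 tags. Tfrc was higher in tumour cell-like cells (5.85 and 6.13 in tags 3 and 4, 4.86 and 5.36 in tags 1 and 2), in CD8 T cell-like cells (3.28 to 3.85) and in CD4 T cell-like cells (5.47 and 8.46 in tags 3 and 4, 5.95 and 6.74 in tags 1 and 2). Such calls were common, as 33.6% of genes were called higher in tumour cell-like, 42.8% in CD8 T cell-like and 45.9% in CD4 T cell-like cells. Hif1a was higher in CD4 T cell-like cells alone among the 5 classes, at ratios of 5.34 and 5.36 in tags 3 and 4 and 2.44 and 4.30 in tags 1 and 2. Fth1, Hmox1 and Slc11a1 were lower in CD8 T, CD4 T and NK cell-like cells, where 15.1, 13.8 and 10.8% of genes were called lower, and Slc11a1 also in tumour cell-like cells, where 25.2% were. None of the 5 genes was called in monocyte/macrophage-like over neutrophil-like cells, where 45.3% of genes were called higher and 7.81% lower.

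Monocyte/macrophage-like cells were also set against the other classes. Over CD8 T cell-like cells they were higher in Fth1 (3.88 and 5.02 in tags 3 and 4, 3.37 and 4.36 in tags 1 and 2), in Hmox1 (9.93 and 27.8, then 10.6 and 21.2) and in Slc11a1 (15.1 and 15.7, then 7.57 and 8.94), beside 22.1% of genes. Tfrc was lower in that contrast, beside 28.5% of genes. Tumour cell-like over monocyte/macrophage-like cells were higher in Tfrc (4.68 and 4.87 in tags 3 and 4, 5.92 and 5.84 in tags 1 and 2), beside 13.1% of genes, and lower in Slc11a1, beside 41.8%. CD4 T cell-like over monocyte/macrophage-like cells were higher in Hif1a (3.58 and 3.35 in tags 3 and 4, 2.12 and 4.27 in tags 1 and 2) and in Tfrc (4.37 and 6.73, then 7.23 and 7.34), beside 29.2% of genes, and lower in Hmox1 and Slc11a1, beside 21%.

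Other genes of iron and heme handling were few on the panel. Of 23 listed, Cd163, the macrophage receptor for haptoglobin-bound hemoglobin, was the 1 gene counted in all tags, and it was called higher in monocyte/macrophage-like than in neutrophil-like cells. Of the listed genes of oxidative stress none was counted in all tags. Slc7a11, the cystine transporter, was counted in tags 2 to 4 and stood in neutrophil-like cells at 1104 and 1116 CPM in tags 3 and 4, against 2017 CPM in tag 2. Of 25 genes known to be induced by hypoxia, 6 were counted in all tags: Vegfa, Cxcr4, Arg1, Cd274, Nt5e and Entpd1. Vegfa, the vascular growth factor and textbook target of HIF-1, was 4.82- and 5.05-fold higher in monocyte/macrophage-like than in neutrophil-like cells in tags 3 and 4, and 3.46- and 3.58-fold in tags 1 and 2. In tumour cell-like over neutrophil-like cells Vegfa was 6.47- and 6.38-fold higher in tags 3 and 4 and 5.79- and 8.28-fold in tags 1 and 2. Arg1 was higher and Entpd1 lower in the first of these contrasts as well, with a median log2 ratio of 0.41 over the 6 genes beside 1.82 over all genes. Of the 6 genes, 2 were called higher (Vegfa and Nt5e) and 3 lower (Cd274, Cxcr4 and Entpd1) in tumour cell-like over neutrophil-like cells, with a median log2 ratio of -1.89 beside 0.44 over all genes. Hif1a was not called in that contrast, at ratios of 0.57 and 0.59 in tags 3 and 4 and 0.86 and 0.68 in tags 1 and 2. Cxcr4, the chemokine receptor, was called higher in CD4 than in CD8 T cell-like cells, as Hif1a was, at 4.18 and 3.84 in tags 3 and 4 and 4.71 and 2.94 in tags 1 and 2 (10.9% of genes were called higher there). Over neutrophil-like cells, 1 of the 6 hypoxia-induced genes was called lower in CD8 T, CD4 T and NK cell-like cells each, where 15.1, 13.8 and 10.8% of all genes were, and 1 higher in CD4 T cell-like cells, where 45.9% were.

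Within monocyte/macrophage-like cells, split by the complement genes C1qa and C1qb and by Arg1, Hmox1 was highest in C1q-positive Arg1-high cells of the no-anti-PD-1 pool. These had 10904 and 10946 CPM in tags 3 and 4 (86 and 11 cells), against 25667 and 43178 CPM in tags 1 and 2 (49 and 21 cells). C1q-positive Arg1-low cells had 8549 and 5643.1 CPM in tags 3 and 4, against 11032 and 6065 CPM in tags 1 and 2, and C1q-low cells had 9538 and 9796 CPM, against 6428 and 9367 CPM. The Arg1-high cells of tags 1 and 2 therefore stood above every other value, while in tags 3 and 4 the 3 subsets lay within 5643.1 to 10946 CPM. The ratio of Arg1-high to C1q-low cells was 1.143 and 1.117 in tags 3 and 4 and 3.99 and 4.61 in tags 1 and 2, so it was not called over all tags. In Arg1-high cells 1 cell held 15.2 and 37.8% of the Hmox1 molecules in tags 3 and 4, and 21.6% in tag 1 and 20% in tag 2. Arg1-high cells were 34.7 and 17.2% of the class in tags 3 and 4, 35.5% in tag 1 and 30% in tag 2. With equal weight to the 3 subsets the class level of Hmox1 was 9664 and 8795 CPM in tags 3 and 4, against 14376 and 19537 CPM in tags 1 and 2.

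Hif1a and Slc11a1 stood above their Arg1-high levels in C1q-low cells of every tag. Hif1a was 6063 and 5750 CPM in C1q-low cells of tags 3 and 4, and 7240 and 5663 CPM in tags 1 and 2. In Arg1-high cells it was 3716 and 2287 CPM in tags 3 and 4, and 4062 and 3183 CPM in tags 1 and 2, so the subsets did not overlap, at ratios of Arg1-high to C1q-low of 0.61 and 0.40 and of 0.56 and 0.56. Slc11a1 was 2350 and 2818 CPM in C1q-low cells of tags 3 and 4, and 3755 and 2800 CPM in tags 1 and 2, against 1059 and 1838 CPM and then 1537 and 1740 CPM in Arg1-high cells. No member passed 2-fold in every tag in this contrast, in which 10% of genes did, and Arg1-high cells were deeper, with medians of 6253.5 and 4402 molecules in tags 3 and 4 and 5662 and 3530 in tags 1 and 2, against 1922 and 2315 and then 2496 and 2239 in C1q-low cells.

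**Figure D2:**
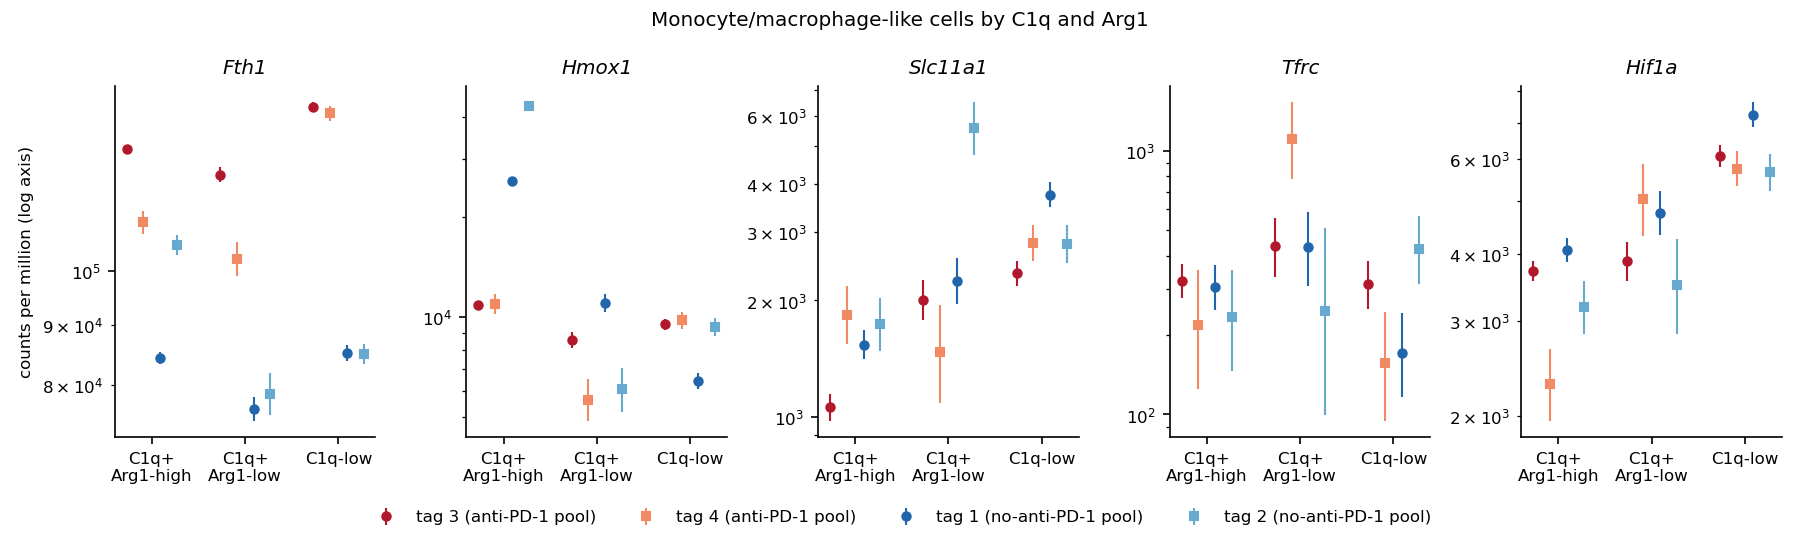
Level of each gene in CPM of shared-gene molecules (log axis) in 3 subsets of monocyte/macrophage-like cells, with 1 point per tag and exact Poisson 95% intervals. Hmox1 stood at 25667 and 43178 CPM in C1q-positive Arg1-high cells of tags 1 and 2, above the other Hmox1 points, and Hif1a was higher in C1q-low than in Arg1-high cells in every tag.

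Neutrophil-like cells were split by Cxcr2, the chemokine receptor of mature neutrophils, and by Chil3, a gene of immature ones. Of 8564 cells, 140 were Chil3-high, 2509 Chil3-low Cxcr2-positive (at least 2 molecules) and 4159 Chil3-low Cxcr2-zero. Chil3-low cells with a single Cxcr2 molecule were in no subset. Hmox1 and Tfrc were called over the Cxcr2 split, and Slc11a1 and Hif1a over the Chil3 split. Hmox1 was 9293 and 8600 CPM in Chil3-low Cxcr2-zero cells of tags 3 and 4, and 12539 and 12142 CPM in tags 1 and 2. In Chil3-low Cxcr2-positive cells it was 2744 and 2985 CPM in tags 3 and 4, and 4426 and 5199 CPM in tags 1 and 2. The Cxcr2-zero cells were higher at 3.39 and 2.88 in tags 3 and 4 and 2.83 and 2.34 in tags 1 and 2, and Tfrc was higher in them too, at 2.85, 2.24, 2.29 and 2.04 in tags 3, 4, 1 and 2 (4.41% of genes were called in this contrast). Cxcr2-zero cells were shallower, with medians of 971 to 1067 molecules, against 1772 to 2243 in Cxcr2-positive cells, and S100a8 stood at 214688 to 293774 CPM in them, against 397049 to 490427 CPM. With S100a8, S100a9 and Fth1 taken out of the total both calls were lost, at ratios for Hmox1 of 2.53 and 2.33 in tags 3 and 4 and 2.32 and 1.92 in tags 1 and 2, and for Tfrc of 2.13 and 1.81, then 1.87 and 1.67.

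Chil3-high cells, 91 and 25 in tags 3 and 4 and 15 and 9 in tags 1 and 2, had the least Slc11a1 of these 3 subsets of neutrophil-like cells. They had 385 and 451 CPM in tags 3 and 4, and 865 and 489 CPM in tags 1 and 2. Chil3-low Cxcr2-positive cells had 2216 and 2199 CPM in tags 3 and 4, and 3229 and 3093 CPM in tags 1 and 2, so that the ratios were 0.17, 0.20, 0.27 and 0.16 in tags 3, 4, 1 and 2. The call held without S100a8, S100a9 and Fth1 in the total, at 0.23 and 0.26 in tags 3 and 4 and 0.35 and 0.22 in tags 1 and 2. Hif1a was lower as well, at 0.38 and 0.37 in tags 3 and 4 and 0.47 and 0.31 in tags 1 and 2, a call that did not hold in the reduced total (0.49 and 0.47, then 0.62 and 0.44), and 22.4% of genes were called in the contrast.

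Neutrophil-like cells grouped by the share of S100a8, their leading transcript, gave ratios that depended on the total. Between cells with under 10% and cells with 50% or more of their molecules from S100a8, Fth1 was 3.46- and 3.22-fold higher in tags 3 and 4 and 3.27- and 2.96-fold in tags 1 and 2. Hmox1 was 6.47- and 4.52-fold higher in tags 3 and 4 and 5.54- and 3.78-fold in tags 1 and 2, and Tfrc 6.94- and 7.28-fold, then 6.17- and 3.49-fold. Hif1a passed 2-fold in every tag as well, and Slc11a1 did not (1.37 to 1.64), while 37.9% of genes were called. A smaller S100a8 share raises every other share by itself. In the total without S100a8, S100a9 and Fth1 no member was called, where 24.3% of genes were. There Hmox1 stood at 2.79 and 1.89 in tags 3 and 4 and 2.56 and 1.74 in tags 1 and 2, Tfrc at 2.99 and 3.04, then 2.85 and 1.60, Hif1a at 0.97 to 1.11, and Slc11a1 below 1, at 0.63 to 0.71.

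**Figure D3:**
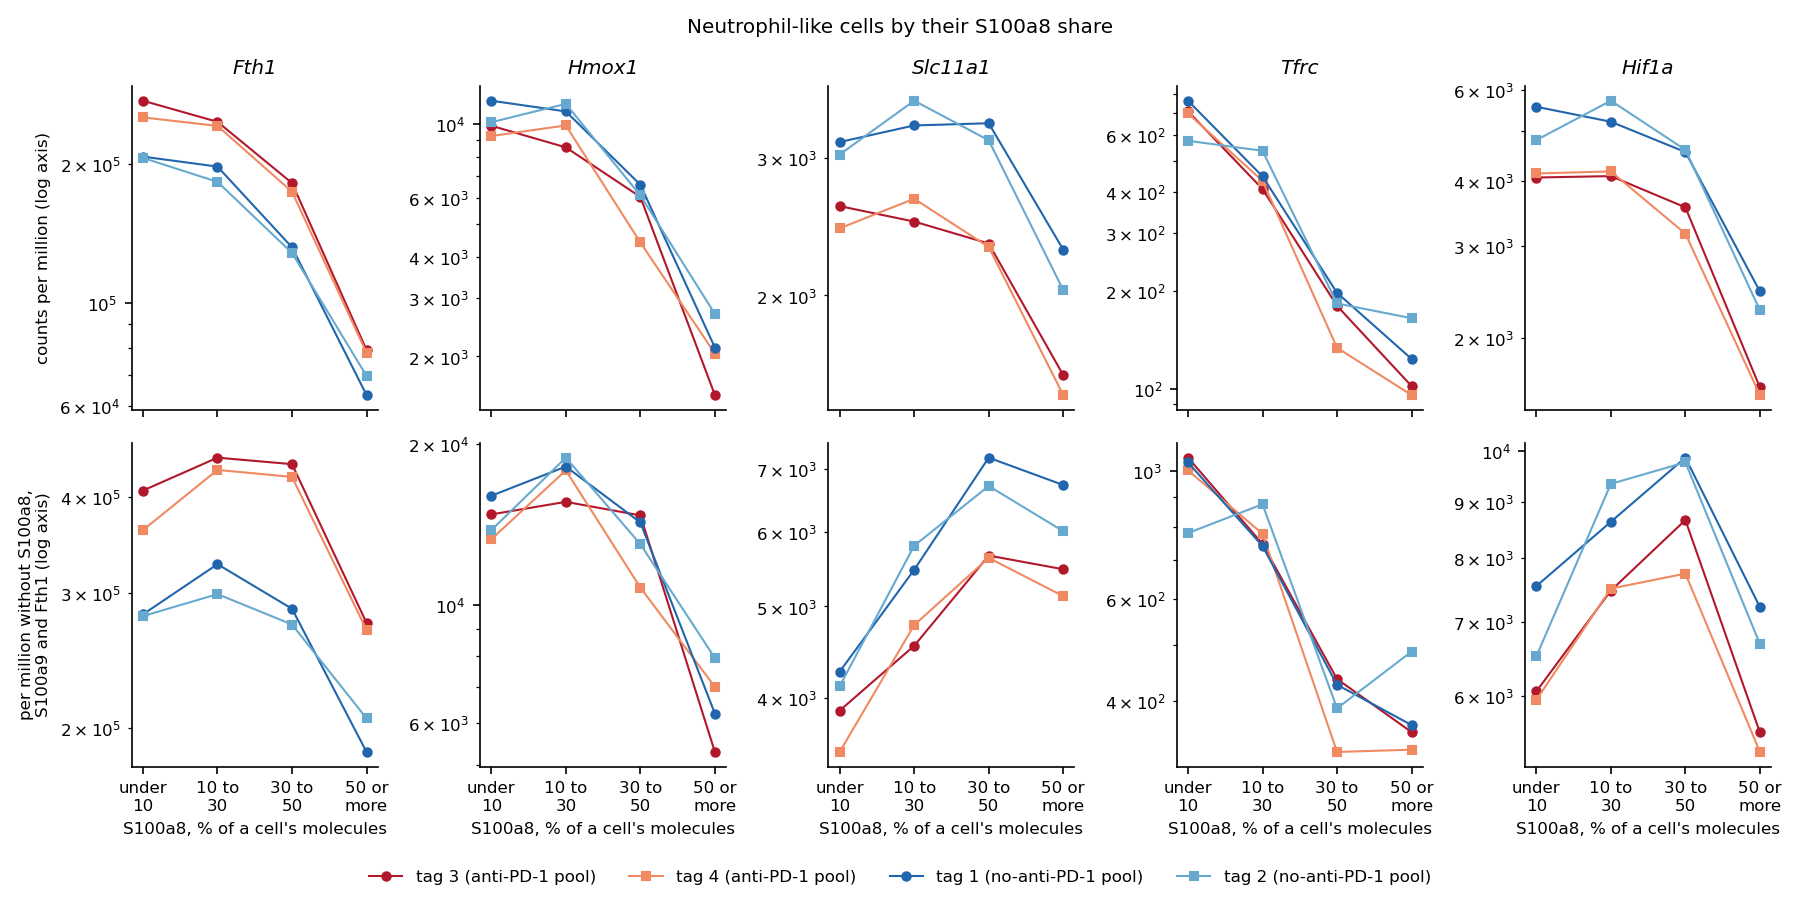
Level of each gene (log axes) in neutrophil-like cells grouped by the percent of a cell's molecules that were S100a8, from low to high, with 1 line per tag, in CPM of all shared-gene molecules above and in CPM of a total without S100a8, S100a9 and Fth1 below. All 5 genes were lower at 50% or more in the upper row, while in the lower row Slc11a1 was lowest in cells under 10%.

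Among tumour cell-like cells, Hmox1 went with 6 cell cycle genes (Mki67, Top2a, Ube2c, Pcna, Tyms and Aurkb). Cycling cells, with at least 5 molecules of these genes, had 6006 and 5674 CPM of Hmox1 in tags 3 and 4 and 9527 and 5166 CPM in tags 1 and 2. Cells with fewer than 2 such molecules had 984 and 1567 CPM in tags 3 and 4 and 1687 and 974 CPM in tags 1 and 2. Cycling cells were higher in every tag, at 6.10 and 3.62 in tags 3 and 4 and 5.65 and 5.31 in tags 1 and 2, with 6.33% of genes called. Hif1a was 1.48 and 3.03 in tags 3 and 4 and 1.92 and 3.64 in tags 1 and 2, and Tfrc 1.19 and 2.27, then 1.87 and 1.90, both above 1 in every tag without being called. The cycling cells were deeper, with medians of 3438.5 to 4064.5 molecules, against 1210.5 to 1667 in the 84 cells not cycling, and the part of depth in this difference was not tested.

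**Figure D4:**
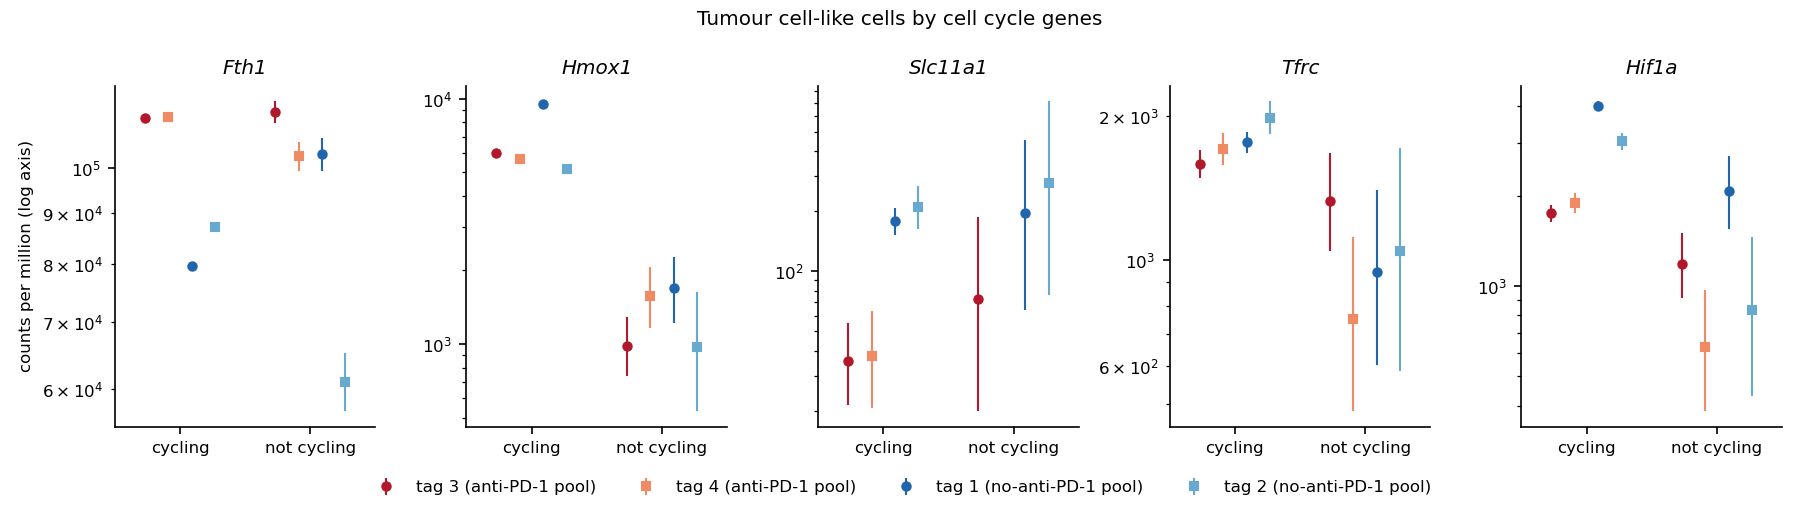
Level of each gene in CPM of shared-gene molecules (log axis) in cycling and not cycling tumour cell-like cells, with 1 point per tag and exact Poisson 95% intervals; Slc11a1 in tag 4 not cycling had no molecule and is not drawn. Hmox1 was between 5166 and 9527 CPM in cycling cells and between 974 and 1687 CPM in cells not cycling, while Fth1 overlapped.

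CD4 T cell-like cells were split by Foxp3. Cells with Foxp3, the regulatory T cell factor, had 2052 and 2935 CPM of Tfrc in tags 3 and 4 and 2613 and 4008 CPM in tags 1 and 2, against 1234.1 and 1577 CPM and then 1109 and 1301 CPM in cells without it. The groups did not overlap, at ratios of 1.66 and 1.86 in tags 3 and 4 and 2.36 and 3.08 in tags 1 and 2, short of a call (9.05% of genes were called). Tags 1 and 2 held 6 Foxp3-positive cells each, of which 1 had 81.2 and 78.9% of the Tfrc molecules. The ratio for Hif1a was 0.79 and 0.70 in tags 3 and 4 and 0.54 and 0.80 in tags 1 and 2, below 1 in each tag and not called.

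Between the pools, 7 of the 29 measured pairs of gene and class were called, and 6.53 to 22.6% of all genes were, depending on class. In monocyte/macrophage-like cells Hmox1 was the 1 member called, lower in the anti-PD-1 pool by a log2 ratio of -1.03 from the values above, with the nearest tags 1.75-fold apart. There 6.53% of genes were called in either direction and 3.44% lower, and the median gene was at -0.16. The call rested on cells with many molecules: without the 5% of cells with the most molecules the log2 ratio was -0.84 and the nearest tags were 1.33-fold apart, which is no call. By subset it lay in the C1q-positive Arg1-high cells, lower by a log2 ratio of -1.66 with the nearest tags 2.34-fold apart (9.41% of genes called), and it was not called in C1q-low or Arg1-low cells. The 8 neutrophil markers on the panel summed to 9299 and 7938 CPM in monocyte/macrophage-like cells of tags 3 and 4, against 14067 and 11857 CPM in tags 1 and 2, none of them at 0, and their part in the Hmox1 difference was not tested. Fth1 went the other way in C1q-low cells, at 137995 and 136272 CPM in tags 3 and 4, against 85216 and 85063 CPM in tags 1 and 2, a log2 ratio of 0.69 with the nearest tags 1.60-fold apart (6.73% of genes called). Over the whole class Fth1 did not overlap between the pools, as 46% of genes did not, but it was not called, at a log2 ratio of 0.52 with the nearest tags 1.33-fold apart.

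In tumour cell-like cells Slc11a1 and Hif1a were both lower in the anti-PD-1 pool, where 18% of genes were called and 11.7% lower. Slc11a1 had 26 and 21 molecules in tags 3 and 4, against 179 and 75 in tags 1 and 2. This gives 34.8 (95% interval 22.7 to 51.0) and 43.4 CPM (26.8 to 66.3) in tags 3 and 4, against 182 (156 to 211) and 212 CPM (167 to 266) in tags 1 and 2, a log2 ratio of -2.34 with the nearest tags 4.20-fold apart. S100a8 and S100a9, the leading neutrophil transcripts, moved with it, under the cap of 5% of a cell's molecules that the gating set on their sum. In tumour cell-like cells S100a8 stood at 4189 and 4075 CPM in tags 3 and 4, against 6770 and 6416 CPM in tags 1 and 2, which is 1.05 and 0.99%, against 2.10 and 1.97%, of the level in neutrophil-like cells. Slc11a1 stood at 1.65 and 2.11% of its neutrophil-like level in tags 3 and 4, against 5.97 and 7.16% in tags 1 and 2, and S100a9 at 1.21 and 0.94%, against 3.798 and 3.30%. The 8 neutrophil markers on the panel summed to 2.15 and 1.96% of their neutrophil-like level in tags 3 and 4, against 3.13 and 2.81% in tags 1 and 2. Cxcr2 and Cxcr1 were at 0 in tags 4 and 2, and Elane in tags 4 and 1. Without S100a8 the sum was 4926 and 4441 CPM in tags 3 and 4, against 4199 and 3568 CPM in tags 1 and 2, and so ran the other way. The part of neutrophil RNA in the Slc11a1 difference was not tested.

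Hif1a in tumour cell-like cells was lower by a log2 ratio of -1.02, with the nearest tags 1.75-fold apart, beside a median gene of -0.28. Hif1a in neutrophil-like cells was 2828 to 4438 CPM, and the neutrophil markers stood in tumour cell-like cells at the 1.96 to 3.13% of their neutrophil-like level given above. Molecules were spread over many cells: 84.6 to 96.7% of tumour cell-like cells had at least 1. Of the 6 hypoxia-induced genes, Entpd1, the ectoenzyme CD39, was called lower in the same cells (log2 -2.14), and Vegfa, at -0.41, was not called. Entpd1 stood in tumour cell-like cells at 0.019 and 0.0073 of its neutrophil-like level in tags 3 and 4, against 0.040 and 0.037 in tags 1 and 2, S100a8 and S100a9 moved with it as given above, and the part of neutrophil RNA in it was not tested. Fth1 and Tfrc were not called, at log2 ratios of 0.49 and -0.21, and Hmox1 overlapped between the pools, as tag 1 had 9027 and tag 2 had 4839 CPM.

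All 5 genes kept the pools apart in neutrophil-like cells, yet none was called. The anti-PD-1 pool stood above the no-anti-PD-1 pool in Fth1, at a log2 ratio of 0.16, and below it in Hmox1, Slc11a1, Tfrc and Hif1a, at log2 ratios of -0.56, -0.53, -0.44 and -0.60, with nearest tags 1.44-, 1.41-, 1.29- and 1.47-fold apart. Tags that did not overlap were the rule there, in 67.7% of genes, and 14.2% were called, with the median gene at -0.22. S100a8 in neutrophil-like cells was 399504 and 409712 CPM in tags 3 and 4, against 322928 and 326249 CPM in tags 1 and 2. A larger S100a8 share lowers every other share by itself, so these log2 ratios depend on the total. Ratios of the 5 genes in a total without S100a8 are not given here for the whole class. Within subsets of neutrophil-like and monocyte/macrophage-like cells 3 of 50 pairs were called, beside 6.73 to 13.2% of genes in the subsets with a call. The share of genes in the other subsets is not given here, so the count has no background over all 50 pairs. Neutrophil-like cells enter these pairs both by Chil3 and Cxcr2 and by S100a8 share, so pairs share cells. Beside Hmox1 and Fth1 above, the third call was in Chil3-low Cxcr2-positive cells, where Hif1a was lower in the anti-PD-1 pool, at 2371 and 2378 CPM in tags 3 and 4, against 3731 and 3731 CPM in tags 1 and 2 (13.2% of genes called). This Hif1a call was lost without S100a8, S100a9 and Fth1 in the total, with the nearest tags under 1.5-fold apart. Hif1a then stood at 6301 and 6050 CPM in tags 3 and 4, against 7835 and 7734 CPM in tags 1 and 2. S100a8 in these cells was 490427 and 475279 CPM in tags 3 and 4, against 402823 and 397049 CPM in tags 1 and 2.

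In lymphocytes 4 pairs were called, those of Slc11a1 and Hmox1 on few molecules. Slc11a1 was lower in the anti-PD-1 pool in CD8 T cell-like cells, at 105 and 147 CPM in tags 3 and 4, against 303 and 303 CPM in tags 1 and 2, from 46 molecules in all (2.55% of genes called lower, 6.81% either way), and its intervals overlapped between the pools. In CD4 T cell-like cells it was lower too, at 281 and 105 CPM in tags 3 and 4, against 514 and 643 CPM in tags 1 and 2, from 54 molecules, with 60.0% of those of tag 3 in 1 cell (3.45% called lower, 12.5% either way). The neutrophil markers summed to 1.88 and 1.25% of their neutrophil-like level in CD8 T cell-like cells of tags 3 and 4, against 2.04 and 2.66% in tags 1 and 2, and to 4.96 and 2.56%, against 3.38 and 4.91%, in CD4 T cell-like cells. In CD8 T cell-like cells Elane was at 0 in all tags, Cxcr1 in tags 4, 1 and 2, and Cxcr2 in tag 2. In CD4 T cell-like cells Elane was at 0 in tags 4, 1 and 2, Cxcr1 in tags 3, 1 and 2, and Cxcr2 in tags 1 and 2. Without S100a8 the sums in CD8 T cell-like cells were 4.44 and 2.03% in tags 3 and 4, against 2.36 and 8.62% in tags 1 and 2. In CD4 T cell-like cells they were 56.1 and 16.3%, against 12.6 and 22.9%, where S100a9 stood at 1.21 and 2.14%, against 2.25 and 3.70%. The part of neutrophil RNA in these Slc11a1 differences was not tested. With Leiden clusters in place of gates the CD8 call was lost, at nearest tags 1.45-fold apart. In NK cell-like cells, 56 and 13 in tags 3 and 4 and 13 and 14 in tags 1 and 2, Fth1 was called higher (27359 and 45309 CPM, against 18059 and 16337 CPM) and Hmox1 lower (337 and 325 CPM, against 2007 and 678 CPM), beside 13.4% of genes called higher and 9.14% lower (22.6% either way). Fth1 had 2839 molecules in this class and Hmox1 61. Tag 4, the highest in Fth1, stood apart in markers: the 2 tumour cell markers of the gates (Lmna and Fn1) summed to 635 and 8960 CPM in NK cell-like cells of tags 3 and 4, against 669 and 881 CPM in tags 1 and 2, and the 4 NK cell markers to 30970 and 16295 CPM, against 37678 and 36876 CPM. Without tag 4 Fth1 was still called, at a log2 ratio of 0.67, beside 35.1% of genes. The part of tumour cell RNA in the Fth1 difference was not tested. With clusters in place of gates neither was called, and 1 cell held 88.9% of the Hmox1 molecules of tag 1. Tfrc was called in no class between the pools, with log2 ratios from -0.44 to 0.09.

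**Figure D5:**
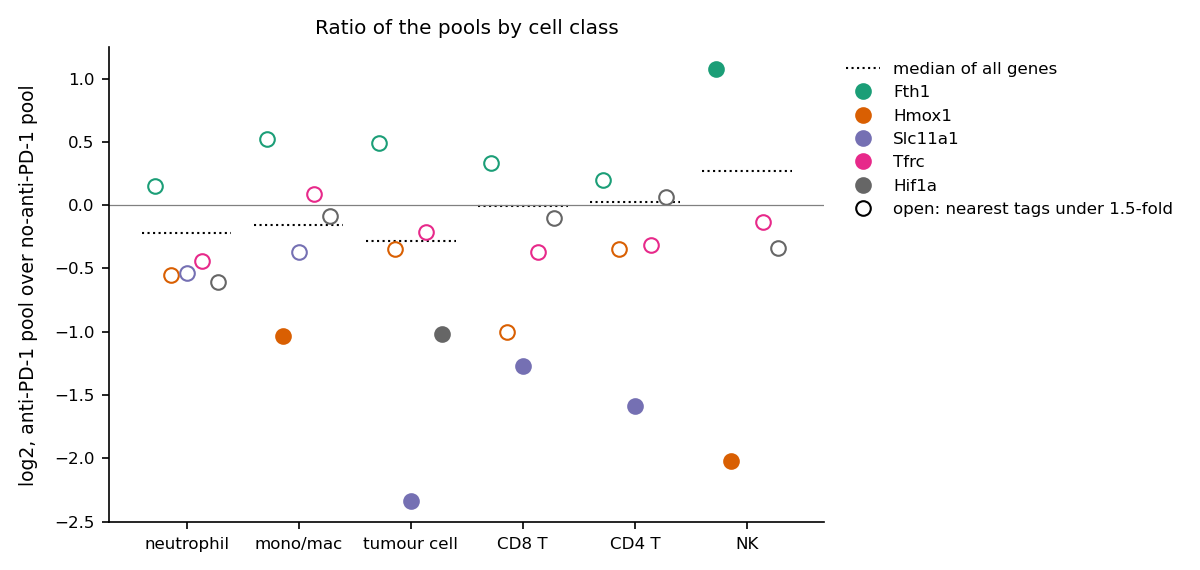
Log2 ratio of the anti-PD-1 pool over the no-anti-PD-1 pool for each gene and class, each pool being the equal-weight mean of its 2 tags. Filled points are called, open points have nearest tags under 1.5-fold apart, the dotted line is the median of all genes, and Slc11a1 in NK cell-like cells had under 30 molecules and is not drawn; Slc11a1 in tumour cell-like cells is lowest, at -2.34.

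Of the 6 hypoxia-induced genes, Nt5e and Entpd1 were called lower in neutrophil-like cells, in the anti-PD-1 pool at 200 and 2828 CPM, against 406 and 4374 CPM in the no-anti-PD-1 pool, where 14.2% of all genes were called. Both calls were lost without S100a8, S100a9 and Fth1 in the total, with the nearest tags 1.4993- and 1.26-fold apart. None was called in monocyte/macrophage-like or CD8 T cell-like cells, where 6.53 and 6.81% of all genes were. Arg1 and Entpd1 were higher in CD4 T cell-like cells, in the anti-PD-1 pool at 588 and 1358 CPM, against 90.02 and 716 CPM (12.5% of all genes called). Entpd1 was also higher in NK cell-like cells, at 1729 CPM, against 389 CPM (22.6% called). Both of these Entpd1 calls were lost with Leiden clusters in place of gates, at nearest tags 1.09- and 1.49-fold apart. They were also lost without the 5% of cells with the most molecules, and that in CD4 T cell-like cells in mean molecules per cell too. Single cells set Arg1 in CD4 T cell-like cells: 1 Foxp3-positive cell held 63 molecules in tag 3, where the other cells held 2, and 1 Foxp3-zero cell held all 17 of tag 4. The median log2 ratios over these genes (5 measured in CD4 T and NK cell-like cells) in neutrophil-like, monocyte/macrophage-like, tumour, CD8 T, CD4 T and NK cell-like cells were -0.47, -0.21, 0.06, 0.52, 0.52 and -0.11, beside -0.22, -0.16, -0.28, -0.01, 0.02 and 0.27 over all genes.

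Within a pool, the tags of the larger classes were close, and 3.46 to 28.1% of all genes were 2-fold apart between the tags of a pool, depending on class. In neutrophil-like cells the ratio of tag 4 to tag 3 was 0.94 to 0.98 for the 5 genes, and that of tag 2 to tag 1 was 0.96 to 1.03. Of 52 ratios measured, 3 were 2-fold apart, each of them Hmox1 in lymphocytes: tag 4 over tag 3 in CD8 T cell-like cells (0.34, with 13.4% of genes as far apart), tag 2 over tag 1 in CD4 T cell-like cells (0.28, with 26.5%) and tag 2 over tag 1 in NK cell-like cells (0.34, with 25.5%). In the last 2, 1 cell of tag 1 held nearly all of the molecules, as given above. Tumour cell-like Hmox1 came next among larger classes, at 0.54 for tag 2 over tag 1, and stayed under the 2-fold required.

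Neutrophil-like, monocyte/macrophage-like and tumour cell-like cells had 30 or more cells in each tag, and their 12 values of log2(CPM + 10) per gene share totals and tags, so that likeness is a description. The shared genes most like Slc11a1, of 341 compared, were Il1rn, Birc3 and Cxcl2 (Pearson r 0.987, 0.985 and 0.980). Those most like Hmox1 were Ly96, Cd72 and Cst7 (0.938, 0.909 and 0.901), and those most like Tfrc were Fosl1, Jun and Trib2 (0.967, 0.959 and 0.958). For Hif1a they were Myd88, Lyn and Birc3 (0.923, 0.879 and 0.857), and for Fth1 Fam65b, Oas2 and Cd3d (0.780, 0.778 and 0.770). Among the members, Slc11a1 and Tfrc ran opposite (r -0.93), and Slc11a1 ran with Hif1a (0.82) and Hmox1 with Hif1a (0.70). With the lymphocyte classes added, over 24 values, Slc11a1 and Tfrc stayed opposite (-0.72), Fth1 and Hmox1 ran together (0.78, against -0.48 over 12 values), and Hmox1 and Hif1a no longer did (-0.27).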

How the data were processed

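The deposited values are counts of molecules per cell and target, split by sample tag and, per the file headers, corrected for errors by the BD pipeline for targeted Rhapsody assays (version 1.12.1). Per the submitters' processing notes Seurat 3.2.0 was also used. No source used here names an aligner or a genome build.

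Counts were summed per tag and cell class and divided by the total over the 396 shared genes (CPM). Levels are not compared between genes, since targets amplify differently. A cell entered a class with at least 3 molecules of its markers at 0.2% or more of its molecules (neutrophil 0.3%, dendritic 0.1%, mast 0.5%), and cells passing several gates were left out in place of a doublet caller. Tumour cell-like cells also needed 3% Lgals1 and under 0.5% Cd14 plus Lyz2. Neutrophil-like cells also needed 1% S100a8 plus S100a9 and under 1% Lgals1. Cells of any other class with 5% or more S100a8 plus S100a9 were left out as mixed. T, NK and B cells with 0.5% or more Cd14 plus Lyz2 were left out likewise. Subsets used Arg1 at 0.2%, Chil3 at 0.5%, and at least 2 Cxcr2, 3 C1q or 1 Foxp3 molecules; CD8 and CD4 T cell-like cells had 2 molecules of their coreceptor. Contrasts needed 30 molecules over the tags, and a tag at 0 entered ratios at 3 counts. Pool values are means of the 2 tags. Intervals are exact Poisson 95% and, like all ranges here, cover counting error only; with 1 cartridge per pool no test was made. Leiden clusters made without the 5 genes put 99.4% of the cells that both ways placed in a main class in the same class. The calls were run on simulated counts that held counting error only. Of 90 genes set 2.5-fold lower in neutrophil-like cells 88.9% were called, and of 112 unchanged genes 99.1% were not. The simulation had no variation between tags, cartridges or cells, so it gives no rate of wrong calls for the real data. In the real neutrophil-like cells 12.8% of genes were 2-fold apart between tags 4 and 3 of the same pool. The members are named always, and for likeness the 3 shared genes with the highest correlation; of the listed iron, oxidative stress and hypoxia genes, those called or with most molecules. Members, lists and gates were chosen with earlier results of these data known. Python 3.11.15, scanpy 1.11.5, R 4.3.3 and edgeR 4.0.16 (TMM factors, as an alternative scaling) were used.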

Additional observations from a re-analysis of the deposited data

How the results depend on the processing

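No paired analysis was possible because each pool is 1 sample. The alternatives were other scalings (without S100a8, S100a9 and Fth1, TMM, mean molecules per cell), without the 5% of cells with the most molecules, clusters for gates, a stricter gate, a stricter fold or no minimum of molecules, and leaving out a tag or cells with shared barcodes. In mean molecules per cell 1 of the 5 genes kept its leading class, with log2 ratios of -0.60 for Fth1 and -0.94 for Slc11a1 in neutrophil-like over monocyte/macrophage-like cells and -1.70 for Tfrc in CD4 T cell-like over tumour cell-like cells. The last was -0.0347 without the 5% of cells with the most molecules, where 4 of 5 leading classes were kept. Per cell, the cells under 10% S100a8 were lower than those at 50% or more in Fth1 (-0.14) and Hif1a (-0.58), 14 subset calls stood in place of 9, and 7 tag contrasts in place of 3. Without S100a8, S100a9 and Fth1 in the total, an alternative chosen after seeing the data for subsets, 2 subset calls were left. Of 7 pool calls, 3 stood when the nearest tags had to be 2-fold apart. Leaving out 1 tag gave 7 to 11 calls, under a rule that is looser with fewer tags. Without tag 2 there were 11, with Hmox1 lower in tumour, CD8 T and CD4 T cell-like cells too. In these classes 37.6, 29.9 and 39.4% of all genes were then called, against 18, 6.81 and 12.5% with all tags. Without tag 1 Hmox1 in CD4 T cell-like cells was called higher (log2 0.85, against -0.99 without tag 2), beside 29.8% of genes. Tfrc in NK cell-like cells was called lower without tag 1 (-0.70, 33.1% of genes called), against higher without tag 2 (0.83, 47.4%). Without tag 3 Hif1a was called lower in neutrophil-like and Hmox1 in CD8 T cell-like cells, where 24.1 and 12.7% of genes were called. Fth1 in NK cell-like cells lost its call per cell, without the 5% of cells with the most molecules, with clusters, with the stricter gate, at 2-fold and with TMM. The Slc11a1 call in tumour cell-like cells was kept in each alternative run. Among hypoxia-induced genes there were 6 pool calls, and 3 without the 5% of cells with the most molecules; of these Entpd1 in tumour cell-like cells is one of the 6, and Arg1 in tumour cell-like and Cd274 in CD8 T cell-like cells are not. Arg1 in CD4 T cell-like cells was lost with clusters and with the stricter gate. Class calls ranged from 13 to 16. Depth limits Slc11a1 in lymphocytes, where 13 to 54 molecules were counted per class.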
